A study of Mus musculus with 22 samples.

Results

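A set of 10 genes that mark pluripotent mouse cells were followed across 22 arrays of mouse embryonic stem (ES) cells: Pou5f1, Sox2, Sall4, Lin28a, Utf1, Zfp281, Zfp42, Dppa2, Dppa3 and Dppa4. They were chosen by name as the general pluripotency core and its Dppa companions, and all 10 were found among the 18193 genes measured. For a gene with several probe sets of its own, the one with the highest mean on the 22 arrays was used. Values are log2 expression as deposited, and a difference of 1 is a change of 2-fold.

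The cells were of the Rex1GFPd2 line, a reporter line in which the Rex1 locus (gene Zfp42) drives a short-lived green fluorescent protein. The arrays form 3 arms. The 2i control arm (7 arrays) held cells with control siRNA 1 (4 arrays) or 2 (3 arrays), kept in medium with PD0325901, which blocks the kinase MEK, and CHIR99021, which blocks the kinase GSK3. The PD-only control arm (7 arrays) held the same control siRNAs (4 and 3 arrays) in cells moved after 24 hours to medium with PD0325901 and no CHIR99021. The PD-only YAP/TAZ siRNA arm (8 arrays) held cells with siRNA mix 1 or 2 against YAP and TAZ (4 arrays each), moved to the same medium at the same time. Every arm contained PD0325901, was transfected and was harvested 72 hours after transfection. No arm combined YAP/TAZ siRNA with 2i. The comparisons ask how these genes differ with and without CHIR99021, and where YAP/TAZ siRNA in PD-only medium places them relative to both. The labels call the arrays of a group biological replicates without giving days or cultures, so p-values measure the spread between these samples.

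Pluripotency rests on a small circuit of transcription factors. OCT4 (gene Pou5f1) and SOX2 bind joint sites in enhancers, sustain their own genes and many others, and act with factors such as SALL4. They are made in naive and primed pluripotent cells alike, whereas factors such as ESRRB and KLF4 belong to the naive state. GSK3 marks beta-catenin for destruction, and inhibitors of GSK3 stabilise it; beta-catenin then relieves repression by TCF7L1 at pluripotency genes. YAP and TAZ are the coactivators of the Hippo pathway, and the title of the series counts them among the parts of the beta-catenin destruction complex.

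The targeted genes were lower in the YAP/TAZ siRNA arm than in either control arm, with no overlap of arrays. Yap1 lay at 9.67 to 9.91 in that arm against 11 to 11.07 in PD-only control and 10.81 to 10.95 in 2i control. Wwtr1, which encodes TAZ, lay at 9.18 to 9.41 against 10.25 to 10.34 and 9.99 to 10.07. The ES cell label was checked with 8 markers, whose lowest standing on any array ran from the 77.6 percentile of all genes (Utf1) to 99.95 (Dppa5a). Of these markers, Pou5f1, Sox2 and Utf1 are also among the 10 genes studied. The lowest of the other markers was Esrrb, at the 88.7 percentile. Arrays of an arm correlated at 0.9977 or above, and no pair was identical. Some measures moved with the arms: the 3′ minus 5′ difference of Actb probe sets, which is larger in more degraded RNA, was 0.66 to 0.75 in PD-only control, 0.87 to 1.19 in 2i control and 0.88 to 1.07 with YAP/TAZ siRNA. That of Gapdh was -0.09 to -0.06, -0.04 to 0.04 and -0.07 to 0.05, and the mean of the poly-A spike controls was 8.01 to 8.46, 8.57 to 8.99 and 8.05 to 8.45, with 2i control apart. Marker lists of other cell types moved too. The mean log2 level over 8 fibroblast markers was 6.69 to 6.83 in PD-only control, 4.62 to 4.87 in 2i control and 4.72 to 4.90 with YAP/TAZ siRNA; 7 of the 8 were called lower in 2i and 6 of the 8 with YAP/TAZ siRNA. For 10 trophoblast markers these ranges were 8.28 to 8.37, 6.16 to 6.21 and 6.45 to 6.59, for 10 primitive endoderm markers 6.03 to 6.17, 5.18 to 5.32 and 5.10 to 5.24, for 7 primitive streak markers 4.77 to 4.93, 4.48 to 4.67 and 4.83 to 5.11, and for 7 neural markers 5.93 to 6.04, 5.11 to 5.36 and 5.65 to 5.90. Against PD-only control, 1 trophoblast marker was called higher and 7 lower in 2i, and 2 higher and 6 lower with YAP/TAZ siRNA. These counts were 1 and 6, then 1 and 5 for primitive endoderm. They were 0 and 2, then 5 and 2 for primitive streak, and 1 and 5, then 2 and 3 for neural markers. The 5 primitive streak markers called higher with YAP/TAZ siRNA were dim. Their means in that arm were 3.82 to 5.09, below the median of 6.64 over all genes. Among trophoblast markers Krt8 differed most (-6.67 and -5.80), while Cdx2 was higher (0.55 and 1.07). The values give no detection call, so no marker can be called absent. The Actb measure was also entered in the fit as a covariate. Its range in PD-only control did not overlap those of the other arms, so that fit cannot separate the measure from the arm in comparisons with PD-only control. The part of the other measures in the results was not tested. In bulk RNA, fewer cells of a type and less RNA per cell cannot be told apart.

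With CHIR99021, 6 of the 10 genes were higher and 4 were lower, at a limma adjusted p under 0.05. The 6 were Pou5f1, Sox2, Zfp42, Zfp281, Dppa2 and Dppa3, and the 4 were Sall4, Lin28a, Utf1 and Dppa4, the last at 0.017 and not called with each array centred on its median over the genes. Such calls were common, since 58% of all genes were called in this comparison, 31.3% higher and 26.7% lower. The arrays of the 2 arms did not overlap for 9 of the 10 genes (all but Dppa4), which was so for 37.6% of all genes. Changes were small: Lin28a was the 1 gene past 2-fold, against 5.81% of all genes called and past 2-fold, and the median difference over the 10 genes was 0.23 on the log2 scale against 0.04 over all genes. The median size of the difference, whatever its sign, was 0.35 against 0.15. The 10 genes were bright, with means over the 22 arrays from 9.52 (Utf1) to 13.11 (Sox2), against a median of 6.64 over all genes. Shares and sizes over all genes, here and in the comparisons below, include dim genes, whose differences RMA compresses. They are therefore not matched to the 10 genes in brightness.

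With YAP/TAZ siRNA in PD-only medium, 4 of the 10 genes were higher (Pou5f1, Sox2, Dppa2 and Dppa3) and 5 lower (Sall4, Lin28a, Utf1, Zfp281 and Dppa4) than in PD-only control; with each array centred on its median over the genes, Sall4, Zfp281 and Dppa4 lay slightly above 0 and were not called. In this comparison 61.8% of all genes were called, 35.5% higher and 26.3% lower. Arrays did not overlap for 6 of the 10 genes (Pou5f1, Lin28a, Utf1, Zfp281, Dppa2 and Dppa3), against 40.4% of all genes. Dppa3 was the 1 gene past 2-fold, against 6.37% of all genes. The median difference over the 10 genes was -0.01 against 0.06 over all genes, and the median size was 0.20 against 0.17. This comparison and the one with CHIR99021 share the PD-only control arrays, so their likeness is no independent evidence.

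The direct comparison of YAP/TAZ siRNA in PD-only medium with 2i control tests where the 2 responses part. Here 5 of the 10 genes were higher with YAP/TAZ siRNA (Sall4, Lin28a, Utf1, Dppa2 and Dppa3), 3 were lower (Sox2, Zfp42 and Zfp281), and Pou5f1 and Dppa4 were not called. Over all genes 48.3% were called, 25.5% higher and 22.8% lower. Arrays did not overlap for 6 of the 10 genes: Lin28a, Dppa2 and Dppa3 lay above, and Sox2, Zfp42 and Zfp281 below. The same held for 28.3% of all genes. None of the 10 was past 2-fold, against 1.51% of all genes, and the median size of the difference was 0.22 against 0.11.

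**Figure D1:**
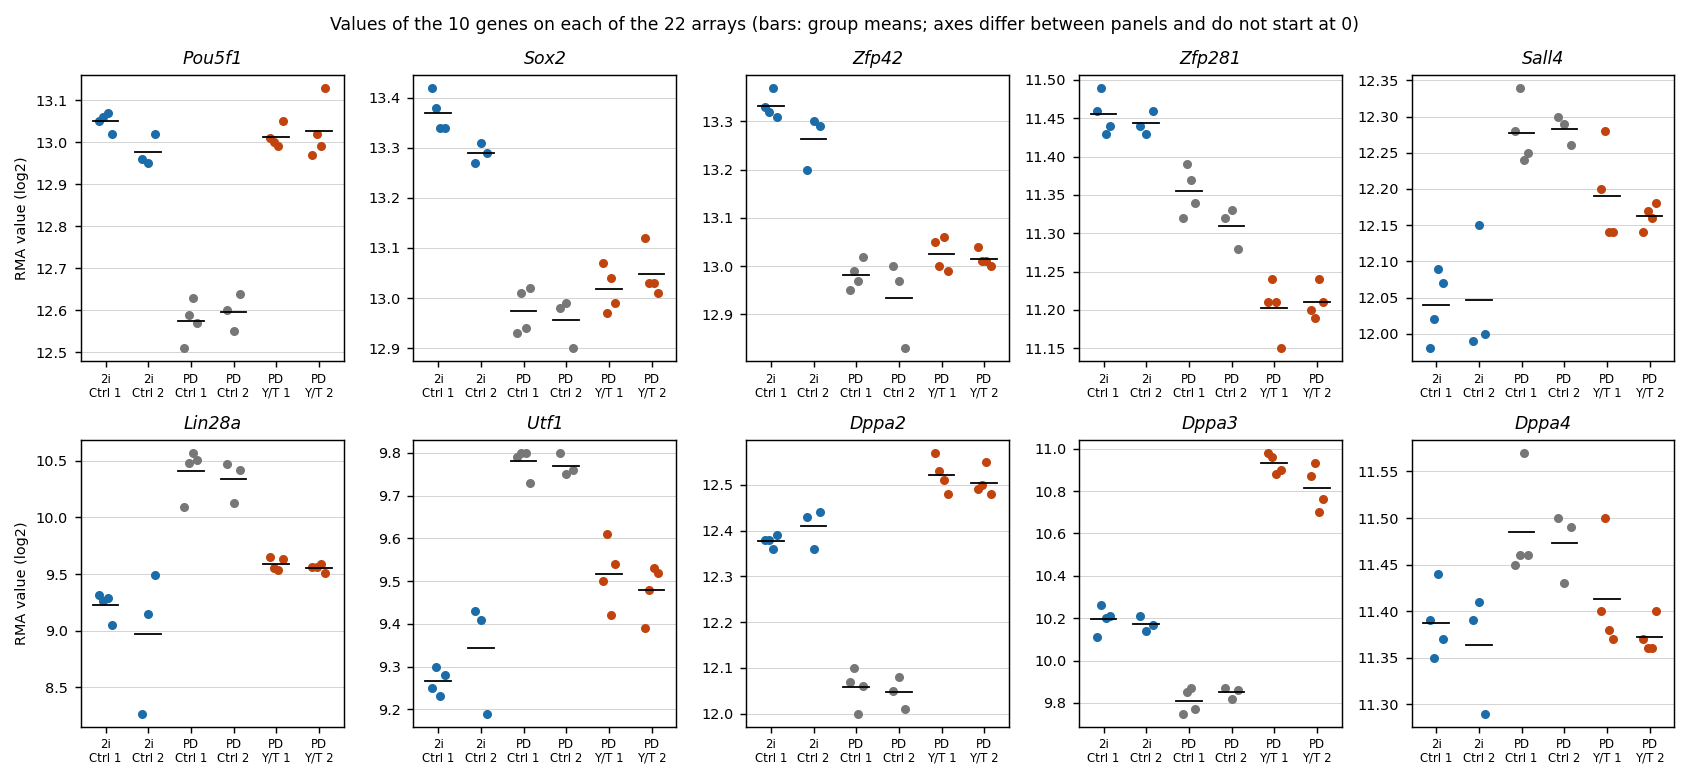
Log2 value of each of the 10 genes (1 panel each, vertical axes differ and do not start at 0) on every array, by group of medium and siRNA along the horizontal axis; points are arrays and bars are group means. Pou5f1 with YAP/TAZ siRNA lies at 12.97 to 13.13, within reach of 2i control at 12.95 to 13.07, whereas Sox2 and Zfp42 with YAP/TAZ siRNA lie beside PD-only control.

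OCT4 and SOX2 work as a pair on shared enhancers, but their transcripts took different places. Pou5f1 ran from 12.95 to 13.07 in 2i control (median 13.02), from 12.51 to 12.64 in PD-only control (median 12.59) and from 12.97 to 13.13 with YAP/TAZ siRNA (median 13.005). All PD-only control arrays were below every array of the other arms, which overlapped each other. Pou5f1 was 1.345-fold higher with CHIR99021 (log2 difference 0.43 ± 0.03 SE, limma adjusted p = 3.53e-11) and 1.35-fold higher with YAP/TAZ siRNA (0.43 ± 0.03, adjusted p = 1.32e-11) than in PD-only control. The YAP/TAZ siRNA arm differed from 2i control by 0.01 ± 0.03, with a 95% confidence interval of -0.05 to 0.06 and an adjusted p of 0.873.

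Sox2 ran from 13.27 to 13.42 in 2i control (median 13.34), from 12.90 to 13.02 in PD-only control (median 12.98) and from 12.97 to 13.12 with YAP/TAZ siRNA (median 13.03). The 2i arrays stood above all others, and the PD-only arms overlapped. Sox2 was 1.29-fold higher with CHIR99021 (0.36 ± 0.03, adjusted p = 2.87e-10). With YAP/TAZ siRNA it differed from PD-only control by 0.07 ± 0.03 (adjusted p = 0.0339), beside a median difference of 0.06 over all genes. With arrays centred over the genes it was 0.20, beside a median of 0.20 over all genes so centred. The call was lost with quantile normalization repeated (adjusted p = 0.0529), with the fit limited to the arms compared (0.0514), with each siRNA alone (0.372 and 0.112) and with the Actb measure as a covariate (0.769). It was also lost without any 1 of 6 arrays: PD-only control siRNA 1 A (0.0689) or C (0.0651), control siRNA 2 C (0.11), mix 1 A (0.0719) or C (0.0586), or mix 2 A (0.078). Against 2i control, Sox2 with YAP/TAZ siRNA stood at 81.4% (-0.30 ± 0.03, adjusted p = 6.38e-09). The order was thus 2i control above the PD-only arms.

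REX1, the product of Zfp42, is a zinc finger protein whose gene is a classic marker of undifferentiated ES cells, and its locus carries the reporter of this line. Zfp42 ran from 13.20 to 13.37 in 2i control (median 13.31), from 12.83 to 13.02 in PD-only control (median 12.97) and from 12.99 to 13.06 with YAP/TAZ siRNA (median 13.01). Again the 2i arrays stood apart and the PD-only arms overlapped. It was 1.27-fold higher with CHIR99021 (0.34 ± 0.03, adjusted p = 1.14e-09). YAP/TAZ siRNA differed from PD-only control by 0.06 ± 0.03, with an interval of 0.01 to 0.12 and an adjusted p of 0.051 that missed the threshold. The difference was 0.04 (adjusted p = 0.212) without the control siRNA 2 PD-only array C. Centred over the genes it was 0.20 (adjusted p = 1.38e-06), beside a median of 0.20 over all genes so centred. With the Actb measure as a covariate it was 0.0003 (adjusted p = 0.997). Leaving out any 1 of 5 other arrays brought a call: 2i control siRNA 2 A (adjusted p = 0.042), PD-only control siRNA 1 D (0.0427), PD-only control siRNA 2 A (0.0201) or B (0.0424), or mix 1 D (0.0434). Zfp42 with YAP/TAZ siRNA stood at 82.5% of 2i control (-0.28 ± 0.03, adjusted p = 2.27e-08). Whether the probes read the reporter allele was not examined.

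The promoters of Sox2 and Zfp42 are shown because these transcripts moved together, with a Pearson correlation of 0.98 over the 22 arrays, which share arms and normalization. Among genes with a mean at or above the median and an SD of at least 0.1, each was the gene most like the other. The windows are the 250 bases before the RefSeq start site in the GRCm38.p6 table, read on the gene's strand, Sox2 at chr3:34649745-34649994 (plus strand) and Zfp42 at chr8:43307010-43307259 (minus strand). Capitals mark exact matches to an octamer core (TGCAAAT, the POU family's letters), a SOX motif (CATTGTT), 2 forms of a TCF/LEF motif (CTTTGAT and CTTTGAA) or a TEAD motif (CATTCC), searched on both strands.
Sox2: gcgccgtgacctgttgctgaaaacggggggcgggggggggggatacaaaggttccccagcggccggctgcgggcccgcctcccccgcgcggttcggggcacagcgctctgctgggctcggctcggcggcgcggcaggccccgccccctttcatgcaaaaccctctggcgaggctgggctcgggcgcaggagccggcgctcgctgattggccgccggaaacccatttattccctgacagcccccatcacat
Zfp42: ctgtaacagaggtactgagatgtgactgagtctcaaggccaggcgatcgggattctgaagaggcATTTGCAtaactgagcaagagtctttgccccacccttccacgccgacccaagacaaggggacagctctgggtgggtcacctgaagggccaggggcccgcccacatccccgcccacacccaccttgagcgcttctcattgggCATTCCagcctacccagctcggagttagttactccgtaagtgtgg
The Zfp42 window holds the octamer core on the opposite strand, 186 bases before the start, and the TEAD letters 45 bases before it. The Sox2 window holds none of the letters searched. Over 32851 promoter windows of the same length, 3.56% held the octamer core, 3.29% the SOX motif, 3.21% and 4.46% the TCF/LEF forms and 12.6% the TEAD letters. Windows were found for 6 of the 10 genes, 7 windows in all. Pou5f1 had 2 windows on the plus strand. The one at chr17:35508557-35508806 held a SOX match on the opposite strand, 159 bases before the start site. The one at chr17:35505782-35506031, which lies upstream, held none of the letters searched. Lin28a had CTTTGAA 72 bases before its start, and Zfp281 and Utf1 had no match. The matches found do not overlap one another, and a match is a description of letters, not of binding.

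Zfp281 and Sall4 are zinc finger regulators that bind many OCT4 and SOX2 targets. ZFP281 is known for driving the passage from naive to primed pluripotency. Its transcript ran from 11.43 to 11.49 in 2i control (median 11.44), from 11.28 to 11.39 in PD-only control (median 11.33) and from 11.15 to 11.24 with YAP/TAZ siRNA (median 11.21). No arm overlapped another, in the order 2i control, PD-only control, YAP/TAZ siRNA. The differences were 0.12 ± 0.02 with CHIR99021 (adjusted p = 0.000102), -0.13 ± 0.02 with YAP/TAZ siRNA (adjusted p = 2.46e-05) and -0.24 ± 0.02 between YAP/TAZ siRNA and 2i control (adjusted p = 4.65e-09). With each array centred on its median over the genes, the difference with YAP/TAZ siRNA was 0.011 (adjusted p = 0.624) and that with CHIR99021 was 0.24.

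SALL4 keeps ES cells from trophoblast fates and is needed for the inner cell mass. Sall4 ran from 11.98 to 12.15 in 2i control (median 12.02), from 12.24 to 12.34 in PD-only control (median 12.28) and from 12.14 to 12.28 with YAP/TAZ siRNA (median 12.165). PD-only control was highest and 2i control lowest, with the YAP/TAZ siRNA arm between them and touching both. Sall4 stood at 84.85% with CHIR99021 (-0.24 ± 0.03, adjusted p = 1.21e-06), differed by -0.10 ± 0.03 with YAP/TAZ siRNA (adjusted p = 0.00498), and was 0.13 ± 0.03 higher with YAP/TAZ siRNA than in 2i control (adjusted p = 0.000835). With arrays centred over the genes, Sall4 differed by -0.12 with CHIR99021 and by 0.033 with YAP/TAZ siRNA (adjusted p = 0.268). The difference with YAP/TAZ siRNA also lost its call, at a like size, with each siRNA alone (-0.09, adjusted p = 0.105, and -0.12, adjusted p = 0.054) and with the Actb covariate (-0.08, adjusted p = 0.269).

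LIN28A binds precursors of the let-7 microRNAs and recruits enzymes that mark them for decay. Lin28a showed the widest differences between media of the 10 genes. It ran from 10.09 to 10.57 in PD-only control (median 10.47), from 8.27 to 9.49 in 2i control (median 9.26) and from 9.51 to 9.65 with YAP/TAZ siRNA (median 9.56). The arms did not overlap, and their spread was unequal, with SDs of 0.40 (2i control, n = 7), 0.19 (PD-only control, n = 7) and 0.05 (YAP/TAZ siRNA, n = 8). Lin28a was 2.42-fold lower with CHIR99021 (-1.28 ± 0.13, adjusted p = 2.78e-08) and stood at 57.3% with YAP/TAZ siRNA (-0.80 ± 0.12, adjusted p = 9.43e-06), which left it 1.39-fold above 2i control (0.47 ± 0.12, adjusted p = 0.00307). The control siRNA 2 2i array A stood at 8.27 against 9.05 for the next lowest, and without it the difference from 2i control was 0.30 (adjusted p = 0.00318). With the Actb measure as a covariate the difference with YAP/TAZ siRNA was -1.39 in place of -0.80.

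UTF1 is a chromatin-bound protein that limits the activation of developmental genes. Utf1 ran from 9.19 to 9.43 in 2i control (median 9.28), from 9.73 to 9.80 in PD-only control (median 9.79) and from 9.39 to 9.61 with YAP/TAZ siRNA (median 9.51). PD-only control stood above all other arrays, and the other arms overlapped. The value with CHIR99021 was 72.15% of PD-only control (-0.47 ± 0.04, adjusted p = 8.19e-10), and with YAP/TAZ siRNA 82.6% (-0.28 ± 0.04, adjusted p = 1.15e-06). YAP/TAZ siRNA exceeded 2i control by 0.19 ± 0.04 (adjusted p = 0.000125). The difference with YAP/TAZ siRNA was -0.09 (adjusted p = 0.146) with the Actb covariate, and that with CHIR99021 was -0.29. With arrays centred over the genes the former was -0.14.

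Sall4, Lin28a and Utf1 thus shared an order, PD-only control above YAP/TAZ siRNA above 2i control, with each step called in the values as deposited; centred over the genes, the step from PD-only control to YAP/TAZ siRNA turned for Sall4. Sall4 and Utf1 correlated at 0.90 over the 22 arrays, and Sox2 and Utf1 at -0.86.

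**Figure D2:**
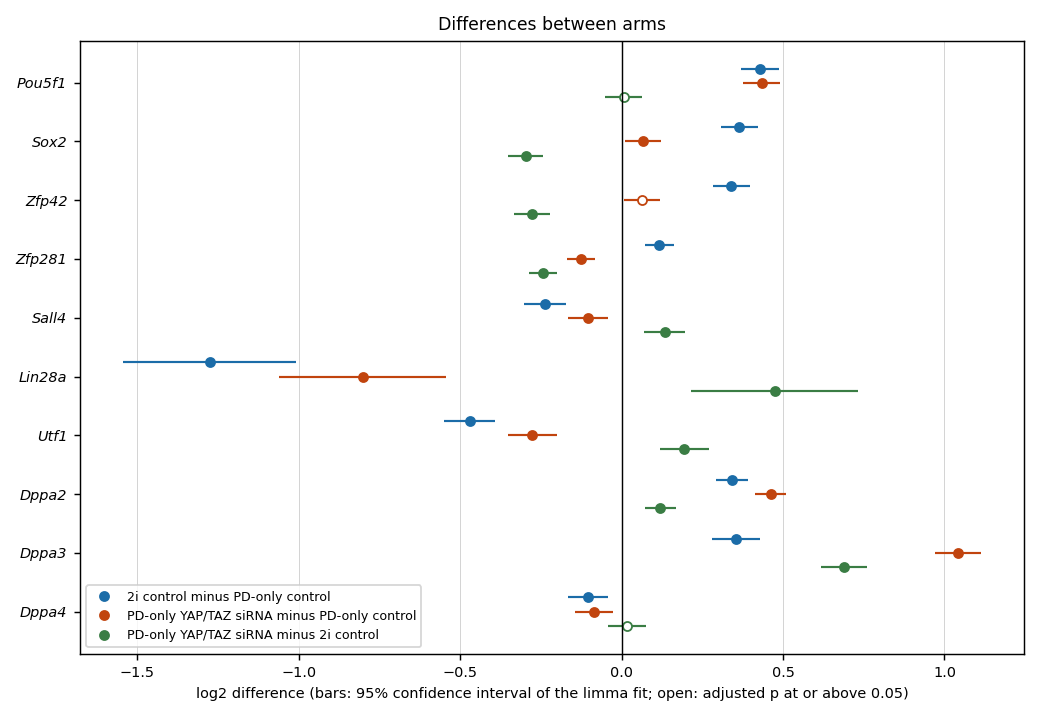
Log2 differences of the 10 genes in the 3 comparisons (points) with 95% confidence intervals from the limma fit (bars); open points had an adjusted p at or above 0.05. Dppa3 lies farthest to the right at 1.04 with YAP/TAZ siRNA and Lin28a farthest to the left at -1.28 with CHIR99021, and the open points are Zfp42 with YAP/TAZ siRNA and Pou5f1 and Dppa4 between YAP/TAZ siRNA and 2i control.

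The Dppa genes were named for their expression in pluripotent cells and are not 1 family: Dppa2 and Dppa4 are neighbouring relatives with a SAP domain whose products act together on chromatin, whereas Dppa3 (STELLA) is a maternal factor and germ cell marker that shields DNA from methylation changes. Dppa3 ran from 10.11 to 10.26 in 2i control (median 10.20), from 9.75 to 9.87 in PD-only control (median 9.85) and from 10.70 to 10.98 with YAP/TAZ siRNA (median 10.89). The 3 arms were fully apart, with the YAP/TAZ siRNA arm highest. Dppa3 was 2.06-fold higher with YAP/TAZ siRNA than in PD-only control (1.04 ± 0.03, adjusted p = 3.54e-16), 1.28-fold higher with CHIR99021 (0.35 ± 0.04, adjusted p = 2.99e-08) and 1.61-fold higher with YAP/TAZ siRNA than in 2i control (0.69 ± 0.03, adjusted p = 1.11e-12). The gene most like it over the 22 arrays was Cox7a1 (Pearson r = 0.99).

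Dppa2 ran from 12.36 to 12.44 in 2i control (median 12.38), from 12 to 12.10 in PD-only control (median 12.06) and from 12.48 to 12.57 with YAP/TAZ siRNA (median 12.505). It showed the order of Dppa3, with no overlap between arms and smaller steps. It was 1.38-fold higher with YAP/TAZ siRNA (0.46 ± 0.02, adjusted p = 3.66e-13), 1.27-fold higher with CHIR99021 (0.34 ± 0.02, adjusted p = 1.04e-10) and higher by 0.12 ± 0.02 with YAP/TAZ siRNA than in 2i control (adjusted p = 0.000181). The gene most like Dppa2 was Kit, a receptor kinase of germ cells (r = 0.99), and within the set Pou5f1 (r = 0.92) and Dppa3 (r = 0.89) were closest.

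Dppa4, the partner of Dppa2, did not follow it. It ran from 11.29 to 11.44 in 2i control (median 11.39), from 11.43 to 11.57 in PD-only control (median 11.46) and from 11.36 to 11.50 with YAP/TAZ siRNA (median 11.375), and all 3 arms overlapped. It was lower by 0.10 ± 0.03 with CHIR99021 (a difference of -0.10, adjusted p = 0.00451) and differed by -0.09 ± 0.03 with YAP/TAZ siRNA (adjusted p = 0.0114). With arrays centred over the genes these were 0.017 (adjusted p = 0.595) and 0.050 (adjusted p = 0.0956), so the direction of Dppa4 depends on the scaling. Both calls were also lost with each siRNA alone, where fewer arrays entered the fit and sizes were alike. These were -0.10 and -0.11 with CHIR99021 (adjusted p = 0.07 and 0.0781) and -0.07 and -0.10 with YAP/TAZ siRNA (0.167 and 0.0774). They were lost too with the Actb covariate (0.416 and 0.579), which cannot be separated from the arm. YAP/TAZ siRNA differed from 2i control by 0.02 ± 0.03 (interval -0.04 to 0.08, adjusted p = 0.67).

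The 10 genes had 16 probe sets in all, and 5 genes had more than 1, which gives a second reading. The second Lin28a probe set gave -0.65 ± 0.07 with CHIR99021 and -0.56 ± 0.06 with YAP/TAZ siRNA, in the same direction and smaller, while its difference between YAP/TAZ siRNA and 2i control, 0.10 ± 0.06, was not called (adjusted p = 0.235). The second Dppa2 probe set gave 0.27, 0.58 and 0.31 in the 3 comparisons, each called. For Zfp281 the second probe set gave 0.21 with CHIR99021 and -0.27 between YAP/TAZ siRNA and 2i control, but -0.06 with YAP/TAZ siRNA against PD-only control (adjusted p = 0.0578).
The second Sall4 probe set was called with CHIR99021 (-0.21, adjusted p = 0.0236) and not with YAP/TAZ siRNA (-0.15, adjusted p = 0.0797) or between YAP/TAZ siRNA and 2i control (0.06, adjusted p = 0.569). Utf1 had the least agreement, and its other probe sets were dim. Their means over the 22 arrays were 5.83 and 3.84, against 9.52 for the set used and a median of 6.64 over all genes. The second Utf1 probe set gave -0.21 with CHIR99021 (adjusted p = 0.00602), -0.04 with YAP/TAZ siRNA (adjusted p = 0.577) and 0.17 between YAP/TAZ siRNA and 2i control (adjusted p = 0.0217). Its last probe set, whose name marks possible cross-hybridisation, gave 0.18, 0.12 and -0.07 with no call. Averaged over its probe sets with equal weight, the dim ones included, Utf1 was -0.17 with CHIR99021 (adjusted p = 0.0076). With YAP/TAZ siRNA it was -0.07 (adjusted p = 0.245), and it lay 0.10 above 2i control with YAP/TAZ siRNA (adjusted p = 0.1).

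**Figure D3:**
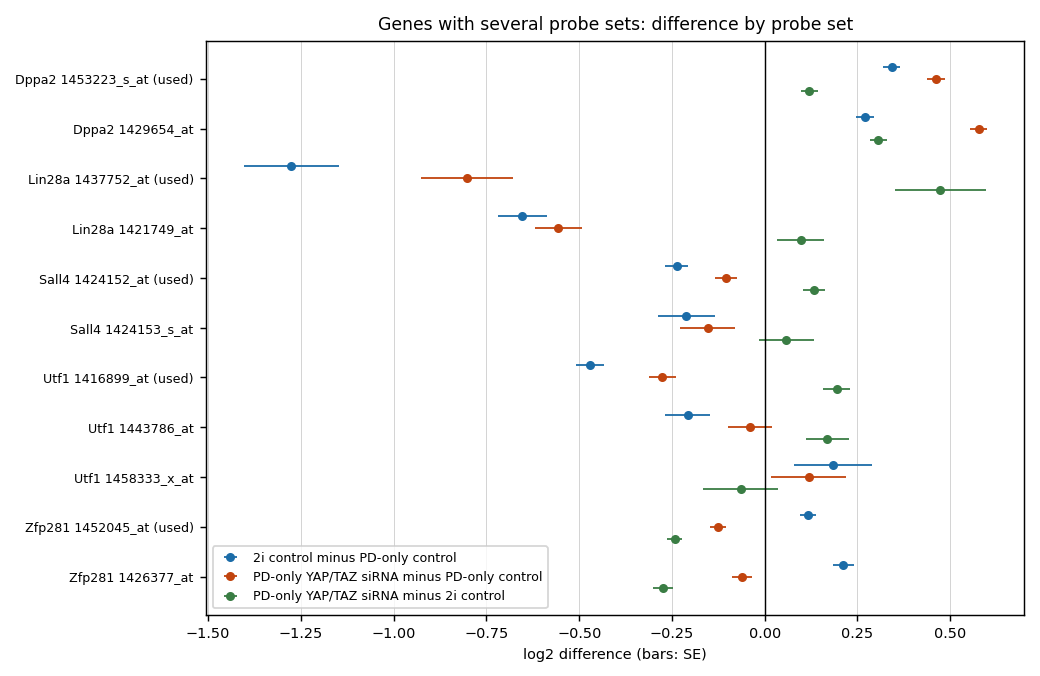
Log2 differences (points, with SE bars) in the 3 comparisons for every probe set of the 5 genes that have more than 1; the set used for each gene is marked. For Lin28a the set used lies at -1.28 with CHIR99021 and the second at -0.65, and the Utf1 probe sets, dim except for the set used, lie on both sides of 0.

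The siRNAs of one kind were compared within a medium, since each arm joins 2 of them. None of the 10 genes was called by limma between control siRNAs in 2i or in PD-only medium, between the YAP/TAZ mixes, or for a difference between media that depended on the control siRNA, and 0 of all genes were called (0% in each). At an unadjusted limma p under 0.05, Dppa3 between the mixes was the 1 case among the 10 genes (mix 2 minus mix 1, -0.12 ± 0.05, adjusted p = 0.9999). Of all genes, 1450 (7.97%) were under it between control siRNAs in 2i and 769 (4.23%) in PD-only medium. Between the mixes 649 (3.57%) were, and 949 (5.22%) for a difference between media that depended on the control siRNA. With limma's trend and robust options, 0 of the 10 genes were called, and 2 and 1 of all genes between control siRNAs. The largest difference among the 10 was Lin28a between control siRNAs in 2i, at -0.26 ± 0.18. Dppa3 was at 10.88 to 10.98 with mix 1 and at 10.70 to 10.93 with mix 2, and every one of these arrays was above the 2i and PD-only control arrays.

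Each remaining gene was also set beside the gene most like it over the 22 arrays, as a description and with the arms shared by all points. The pairs were Pou5f1 with Acp6 (r = 0.98), Utf1 with Cpxm1 (0.98), Zfp281 with Mpzl2 (0.97), Lin28a with Net1 (0.96) and Sall4 with H2aj (0.95). Dppa4, which differed least between arms of the 10 genes, had its closest gene at 0.84 (Pnma5).

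The circuit around the core was described through lists of related genes. Of 11 naive pluripotency factors, 11 were higher with CHIR99021 (median 0.89 against 0.04 over all genes), 9 were higher and 2 lower with YAP/TAZ siRNA (median 0.61 against 0.06), and 10 were lower with YAP/TAZ siRNA than in 2i control (median -0.22 against 0.015). Nr5a2, a nuclear receptor that can act upstream of Pou5f1, differed by 1.66 ± 0.03 with CHIR99021 and by 1.60 ± 0.03 with YAP/TAZ siRNA. Klf4 differed by 0.08 ± 0.03 and by -0.87 ± 0.03. Pou5f1 and Sox2, at 0.43 and 0.36 with CHIR99021, lay below the median of the naive factors there.

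Genes with known OCT4-SOX2 enhancers were a mixed list. Of 8 measured among 9, 6 were higher and 1 lower with CHIR99021 (median 0.12 against 0.04 over all genes), 4 higher and 1 lower with YAP/TAZ siRNA (median 0.04 against 0.06), and 2 higher and 4 lower between YAP/TAZ siRNA and 2i control (median -0.06 against 0.015). With arrays centred over the genes, 7 were higher and 0 lower in each of the first 2 comparisons (medians 0.24 and 0.17, against 0.16 and 0.20 over all genes so centred). With quantile normalization repeated 2 were higher and 1 lower with YAP/TAZ siRNA. Nanog differed by 0.51 ± 0.02 and 0.29 ± 0.02 from PD-only control in the first 2 comparisons, and Lefty1, a Nodal antagonist, by 0.50 ± 0.03 and 0.76 ± 0.03. Jarid2, a partner of the Polycomb complex PRC2, differed by 0.38 ± 0.02 with CHIR99021 and stood -0.40 ± 0.02 from 2i control with YAP/TAZ siRNA. Of 8 other ES-cell-associated transcripts measured among 10, 3 were higher and 3 lower with CHIR99021 (5 and 3 with arrays centred over the genes), 4 higher and 2 lower with YAP/TAZ siRNA (6 and 2 so centred), and 4 higher and 3 lower between YAP/TAZ siRNA and 2i control. Eras, a Ras-like gene of ES cells, differed by -1.08 ± 0.03 with CHIR99021 and was 0.83 ± 0.03 higher with YAP/TAZ siRNA than in 2i control; Khdc3, a maternal-effect gene, differed by -0.85 ± 0.05 and 0.94 ± 0.04.

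The relatives of the 10 genes showed larger differences than the genes themselves in several cases. Of 12 measured among 14, 5 were higher and 6 lower with CHIR99021, 4 higher and 6 lower with YAP/TAZ siRNA (6 and 4 with arrays centred over the genes), and 3 higher and 3 lower between YAP/TAZ siRNA and 2i control. Beside Sall4 at -0.24 and -0.10, Sall3 differed by 2.50 ± 0.06 and 1.80 ± 0.06 and Sall2 by -1.78 ± 0.08 and -2.01 ± 0.07 with CHIR99021 and with YAP/TAZ siRNA. Pou3f1 (OCT6), a POU factor of primed cells, differed by -1.90 ± 0.04 and -1.74 ± 0.04, opposite to Pou5f1. Zfp148, the close relative of Zfp281, was higher in both comparisons (0.50 ± 0.04 and 0.55 ± 0.04) and Sox15 was higher with YAP/TAZ siRNA (0.80 ± 0.07).

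The let-7 microRNAs that LIN28A restrains share the seed at bases 2 to 8, shown in capitals for 2 members; the arrays do not measure mature microRNAs, and the sequences are RefSeq's.
let-7a-5p: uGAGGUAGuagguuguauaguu
let-7g-5p: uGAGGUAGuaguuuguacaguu
Targets of this seed and partners of LIN28 went in both directions. Of 11 measured among 12, 3 were higher and 7 lower with CHIR99021 (median -0.21, and 4 and 6 with arrays centred over the genes), 4 higher and 7 lower with YAP/TAZ siRNA (median -0.16, and 4 and 5 so centred), and 3 higher and 3 lower between YAP/TAZ siRNA and 2i control. Arid3a, a let-7 target, differed by -0.74 ± 0.04 and -0.59 ± 0.04, and Hmga2, a chromatin protein and let-7 target, by 0.60 ± 0.03 and 0.37 ± 0.03, opposite to Lin28a. Tut7, a uridylyl transferase that works with LIN28, differed by -0.27 ± 0.03 and -0.47 ± 0.03.

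SALL4 and ZFP281 bind the NuRD chromatin complex, whose 11 subunits were mixed: 3 were higher and 6 lower with CHIR99021 (5 and 5 with arrays centred over the genes), 4 and 5 with YAP/TAZ siRNA (7 and 3 so centred), and 3 and 3 between YAP/TAZ siRNA and 2i control. Chd4, its remodelling enzyme, differed by -0.38 ± 0.04 with CHIR99021 and was 0.43 ± 0.03 higher with YAP/TAZ siRNA than in 2i control. Mta3 differed by -0.45 ± 0.03 and -0.40 ± 0.03 and Mta2 by 0.37 ± 0.05 and 0.40 ± 0.05 with CHIR99021 and with YAP/TAZ siRNA.

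DPPA2 and DPPA4 can activate genes of the 2-cell embryo through Dux. Of 5 genes measured among 10, 4 were higher with CHIR99021 (median 0.34), 4 were lower with YAP/TAZ siRNA (median -0.36), and 5 were lower with YAP/TAZ siRNA than in 2i control (median -0.68). Zfp352 differed by 0.97 ± 0.04, -0.49 ± 0.04 and -1.46 ± 0.04 in the 3 comparisons, while Dppa2 differed by 0.34, 0.46 and 0.12. With arrays centred on their medians, over all probe sets or over the genes, 3 in place of 4 were lower with YAP/TAZ siRNA.

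For Dppa3 the lists were DNA methylation and germ cells. STELLA acts on UHRF1, the protein that brings DNMT1 to replicating DNA. Uhrf1 differed by 0.43 ± 0.02 and Dnmt1 by 0.41 ± 0.02 with YAP/TAZ siRNA, and Dnmt3l by -1.53 ± 0.05. Of the 7 methylation genes, 3 were higher and 3 lower with CHIR99021, 5 and 2 with YAP/TAZ siRNA, and 3 and 3 between YAP/TAZ siRNA and 2i control. Of 9 germ cell and formative genes, 3 were higher and 5 lower with CHIR99021, 5 and 4 with YAP/TAZ siRNA, and 6 and 3 between YAP/TAZ siRNA and 2i control. The germ cell genes Kit (1.49 ± 0.03) and Dazl (1.45 ± 0.04) were higher with YAP/TAZ siRNA than in PD-only control. The germ cell gene Ddx4 (-0.46 ± 0.04) and the formative gene Fgf5 (-4.39 ± 0.12) were lower. Each of these genes was called in the same direction with CHIR99021. Against 2i control, Kit and Dazl with YAP/TAZ siRNA were higher by 0.29 ± 0.03 and 0.27 ± 0.04. Ddx4 and Fgf5 were higher in that comparison by 0.37 ± 0.04 and 1.01 ± 0.12. Tfap2c, a factor of germ cells and trophoblast, was 1.44 ± 0.06 higher with YAP/TAZ siRNA than in 2i control.

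**Figure D4:**
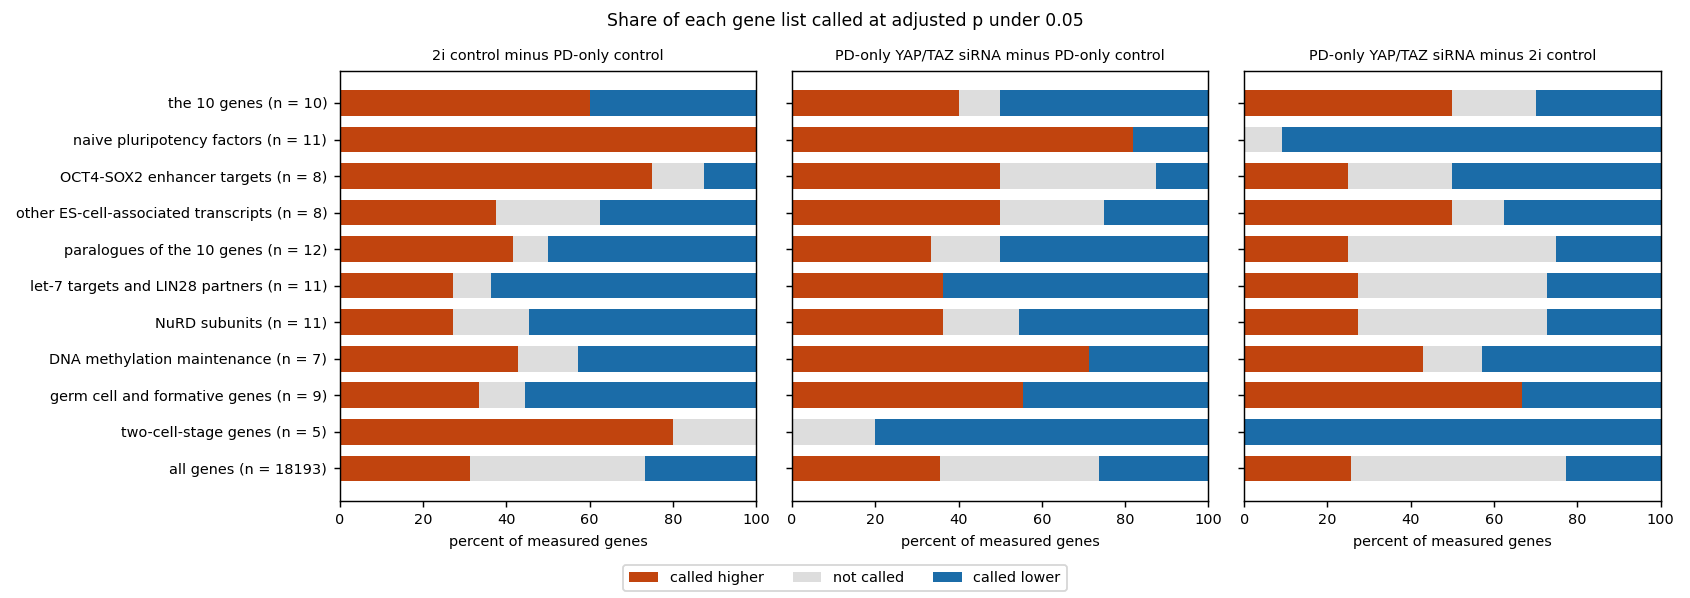
Share of the measured genes of each list (n beside its name) called higher, not called or called lower at a limma adjusted p under 0.05, in the 3 comparisons (1 panel each), with all 18193 genes in the bottom row. The 11 naive pluripotency factors are all higher with CHIR99021, whereas the 10 genes divide into 6 higher and 4 lower, and the 2-cell list turns from higher with CHIR99021 to lower with YAP/TAZ siRNA.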

How the data were processed

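Total RNA of Rex1GFPd2 mouse ES cells was hybridised to Affymetrix 3′ expression arrays, 1 sample per array, per the labels. The deposited values, 45101 probe sets on 22 arrays ranging from 2.09 to 14.91, are taken as log2 expression; RMA is named in the submitters' processing notes, with its version not given in the sources used here. RMA makes array distributions alike, which hides any change in the total RNA of a cell, and compresses differences of dim genes. The number of arrays limits the precision. Of the probe sets, 34945 carried 1 gene symbol, 932 several and 9160 none listed, with 64 controls left out; 34741 matched the RefSeq gene table by Entrez identifier. Each of 18193 genes was read from its probe set with the highest mean.

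limma 3.58.1 in R 4.3.3 fitted 1 mean per group of medium and siRNA (16 residual and 3.1 prior degrees of freedom), arms being averages of their siRNA groups with equal weight. The call was an adjusted p under 0.05 (Benjamini-Hochberg, over all genes), and errors of differences are SEs of the model. The fit was tested on simulated data. Genes named were the 10 genes, Yap1 and Wwtr1, for each of the 10 the most correlated gene (among genes with a mean not below the overall median of 6.64 and an SD of at least 0.1), and up to 4 called genes per list and comparison with the largest difference. Lin28b was also named, for its low values. The 10 genes and all lists were chosen with earlier results of these data known. Promoter windows and microRNA sequences come from RefSeq tables (GRCm38.p6). Alternatives covered probe set choice, cross-hybridising sets, dim genes, normalization, centring, the variance model, arrays and siRNAs in the fit, an Actb covariate, the replicate letter as a block and each array left out. A background correction and a slide or scan block were not run, since the deposited values are already summarised and no scan date was used.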

Additional observations from a re-analysis of the deposited data

Results flagged for a closer look

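Single arrays stood apart from the rest of their group or arm for 5 of the 10 genes, 6 times among 70 groups and arms examined, where chance flags about 1 in 20; groups of 3 arrays were not examined. In these cases the gap from the extreme array to the next was a large share of the whole range. Lin28a was at 8.27 on the control siRNA 2 array A in 2i, with the next lowest 2i control at 9.05. Zfp42 was at 12.83 on the control siRNA 2 array C in PD-only medium, with the next at 12.95. Utf1 was at 9.73 on the control siRNA 1 array D in PD-only medium, with the next at 9.79. Dppa4 was at 11.57 on the control siRNA 1 array C in PD-only medium, with the next highest at 11.46. With YAP/TAZ siRNA, mix 1 array B was the highest for Dppa4 (11.50, next 11.40) and for Sall4 (12.28, next 12.20).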

How the results depend on the processing

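The differences of the 10 genes were recomputed under 14 alternatives and with each of 22 arrays left out, and 1034 of 1080 values did not change sign and kept their side of the threshold. Most of these values come from fits without 1 array, which share their other arrays with the main fit. Without those fits, 136 values were kept with CHIR99021, 118 with YAP/TAZ siRNA and 133 between YAP/TAZ siRNA and 2i control. With YAP/TAZ siRNA, 14 values lost the call, 5 gained it and 3 changed sign. As deposited, array medians over the genes differed by -0.12 with CHIR99021, -0.14 with YAP/TAZ siRNA and -0.02 between YAP/TAZ siRNA and 2i control. Centring each array on that median, chosen after seeing the data, removed these gaps and so raised the difference of every gene by their size. The median difference over all genes rose from 0.04 to 0.16 with CHIR99021 and from 0.06 to 0.20 with YAP/TAZ siRNA. This centring turned Dppa4 with CHIR99021 to 0.017 and, with YAP/TAZ siRNA, Sall4 to 0.033, Zfp281 to 0.011 and Dppa4 to 0.050. Between YAP/TAZ siRNA and 2i control, where neither gene was called under any of these settings, Pou5f1 was -0.038 with control siRNA 1 and mix 1 alone and ranged from -0.010 to 0.018 with each array left out, and Dppa4 was -0.011 with quantile normalization repeated and ranged from -0.0012 to 0.029. The higher share of calls then rose from 54% to 75.2% of all genes with CHIR99021 and from 57.4% to 77.8% with YAP/TAZ siRNA, where the share among the 10 genes rose from 44.4% to 71.4% (55.6% with centring over all probe sets). The genes lower with YAP/TAZ siRNA, 5 as reported, were 2 with that centring, 2 with the Actb covariate and 3 with either siRNA alone. The Actb measure set PD-only control apart from the other arms, so its fit cannot separate the measure from the arm. The genes higher with YAP/TAZ siRNA than in 2i control, 5 as reported, were 1 with control siRNA 2 and mix 2 alone, where Sall4 (adjusted p = 0.0803), Lin28a (0.0698), Utf1 (0.125) and Dppa2 (0.101) lost their calls; fewer arrays entered that fit. Requiring a difference of at least 1 left 0 higher and 1 lower with CHIR99021, 1 higher and 0 lower with YAP/TAZ siRNA, and 0 and 0 between YAP/TAZ siRNA and 2i control. Leaving out each array gave 3 to 5 genes higher with YAP/TAZ siRNA and changed no other count of the 10 genes. The cause of these changes was not tested beyond this. Zfp42 with YAP/TAZ siRNA was called under 5 alternatives, among them limma's trend and robust options (adjusted p = 0.00912), and was at 0.0003 with the Actb covariate.

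No pairing by replicate letter was seen in the values: deviations of same-letter arrays correlated at -0.08 to 0.12 over 51 pairs (median 0.0018, 2 over 0.1). Those of different letters correlated at -0.16 to 0.18 over 150 pairs (median -0.002, 4 over 0.1). The labels do not say whether a letter marks a shared culture or day. With the letter as a replicate block the counts were 6 higher and 4 lower with CHIR99021, 4 and 5 with YAP/TAZ siRNA, and 5 and 3 between YAP/TAZ siRNA and 2i control, and 0 between siRNAs of one kind. A background correction and a slide or scan block were not run.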
